A study of Mus musculus with 12 samples.

Results

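The miRNAs described here are those known from microglia and blood leukocytes, namely Mir-142, Mir-146, Mir-155, Mir-223, Mir-150 and Mir-342. They were chosen by family name, and every arm of these families was taken, which gave 13 of the 513 miRNA arms in the table. The 12 libraries are small RNA of whole hippocampus, each from 1 male wild-type mouse of the inbred strain C57BL/6J. In the exercised lineage, 6 mice were grandsons, through the male line, of grandfathers (F0) that had exercised. The sedentary lineage has 6 mice that were grandsons of sedentary grandfathers. The labels give exercise to the grandfathers only, and give no age for the mice. All mice shared strain, genotype, sex and tissue. Sample codes with the stems R31 and R41 mark the exercised lineage and those with S11 and S41 the sedentary one, 3 mice to a stem, and what a stem stands for is not stated. If mice with a shared stem are related, p-values that count 6 mice per lineage are too small.

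A miRNA is cut from a hairpin RNA with a 5p and a 3p arm, one of which is usually loaded into Argonaute as the guide while the other, the passenger, is mostly degraded. The guide finds target mRNAs mainly through its seed, bases 2 to 8. Mir-142 is specific to blood-forming lineages and, in the brain, marks microglia and other immune cells. Mir-223 is a myeloid miRNA that is abundant in neutrophils. Mir-155 is induced when macrophages and microglia meet inflammatory signals, and miR-146a is induced through NF-kB and damps that pathway through Traf6 and Irak1. Mir-150 is a miRNA of mature lymphocytes that represses Myb, and Mir-342 is expressed from its host gene Evl in blood cells and in brain. Whole hippocampus holds microglia and the blood in its vessels, so the 2 sources cannot be told apart, nor can fewer cells be told apart from less miRNA per cell.

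The mature sequences show which members share a seed. They are RefSeq's, on GRCm38.p6, written 5′ to 3′ with the seed in capitals, and 11 of the 12 mature names sought had an entry.
miR-142a-5p: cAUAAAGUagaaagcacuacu
miR-142a-3p: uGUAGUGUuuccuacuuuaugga
miR-223-5p: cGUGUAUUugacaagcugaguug
miR-223-3p: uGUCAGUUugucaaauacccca
miR-155-5p: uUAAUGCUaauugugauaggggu
miR-146a-5p: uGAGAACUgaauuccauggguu
miR-146b-5p: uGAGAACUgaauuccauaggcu
miR-146b-3p: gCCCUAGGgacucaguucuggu
miR-150-3p: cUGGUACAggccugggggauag
miR-342-5p: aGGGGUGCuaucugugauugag
miR-342-3p: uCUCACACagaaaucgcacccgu

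The only seed shared between these 11 sequences was that of miR-146a-5p and miR-146b-5p. Counted from 1 at the 5′ end, miR-146b-5p differs from miR-146a-5p by G18A and U21C, both outside the seed. No other mature mouse miRNA of the RefSeq table held any of the listed seeds. The deposited rows follow MirGeneDB, which numbers paralogues P1 and P2, marks the passenger arm with an asterisk and gives alternative cuts of a hairpin as variants (v). The table does not pair the 2 Mir-146 paralogues with miRBase letters, so they are called Mir-146-P1 and Mir-146-P2 here.

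The hairpins of Mir-142 and Mir-223 are shown because the reads of their arms are compared in the results (mature arms in capitals, plus strand).
Mir142: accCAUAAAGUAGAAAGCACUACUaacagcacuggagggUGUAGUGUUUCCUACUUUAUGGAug
Mir223: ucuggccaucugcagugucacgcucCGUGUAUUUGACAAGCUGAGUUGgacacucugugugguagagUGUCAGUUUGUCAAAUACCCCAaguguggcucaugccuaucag

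In the GENCODE annotation of mm10, Mir142 lies in an intron of the long noncoding Mir142hg (chr11:87756864-87756927), with Mir142b on the other strand. Mir223 lies in an exon of the noncoding F630028O10Rik (chrX:96242817-96242926), and Mir155 in an exon of Mir155hg (chr16:84714140-84714204). Mir146 (chr11:43374397-43374461) and Mir150 (chr7:45121757-45121821) are intergenic. Mir146b lies in an intron of Mfsd13a (chr19:46342762-46342870) and Mir342 in an intron of Evl (chr12:108658620-108658718).

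All 13 arms were detected in all 12 libraries, and none was called between the lineages. Values are normalized counts, meaning reads that the authors scaled by a size factor for each library, and libraries held 6862623 to 10219856 reads. Differences are log2 folds, exercised minus sedentary lineage, on log2(value + 1), and a call needed a limma adjusted p below 0.05 over all 474 arms with a mean of at least 10. Of the 13 members, 7 had a fold above 0 and 6 below, with a median of 0.03, beside 236 above, 238 below and a median of -0.00 over all tested arms. With libraries scaled to equal totals, 9 members and 308 of all tested arms were above 0. Without library 1 of the exercised lineage, 5 members were above 0 and 8 below, with a median of -0.06. The limma test called 0 of 13 members, where it called 0.00% of all tested arms, and 0 of 13 had an unadjusted p below 0.05, where 7.17% of all tested arms did. The lineages overlapped for 13 of 13 members, and non-overlap was found for 0.00% of all tested arms. For 5 members the 95% confidence interval kept within 1.5-fold of no difference, and for 11 within 2-fold.

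The members together held 0.196% ± 0.030 of all normalized counts in exercised-lineage mice and 0.226% ± 0.028 in sedentary-lineage mice (SD, n = 6 each). Most of that was Mir-146, with 0.160% ± 0.030 in the exercised lineage against 0.192% ± 0.027 in the sedentary lineage. The myeloid Mir-223 held 0.00045% ± 0.00014 in the exercised lineage against 0.00045% ± 0.00012 in the sedentary lineage. Reads came from PCR libraries with no molecular identifiers named in the labels, so counting errors given here cover counting only.

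Levels of the members spanned 1095-fold, from Mir-146-P2_5p (mean 14333 normalized counts over 12 libraries, 58th of 513 arms) to Mir-223_3p (mean 13.1, 454th). Mir-146-P2_5p stood above the next arm, Mir-150_5p, in 12 of 12 libraries with no overlap of their ranges. Below it came Mir-150_5p (1351), Mir-342_3p (893), Mir-146-P1_5p (537) and the 5p row of Mir-142 variants v1 to v3 (346). The ranges of these 4 neighbours overlapped, yet each stood above the next in 11 or 12 of 12 libraries. The Mir-142 3p row (101), Mir-342_5p* (84.3) and the 5p row of Mir-142 variant v4 (72.9) were not ordered beyond their spread, the first above the second in 7 and the second above the third in 8 libraries. Mir-155_5p (31.3), Mir-146-P2_3p* (24.2), Mir-223_5p* (24.0) and Mir-150_3p* (14.6) followed, with overlapping ranges throughout. An arm is read whole in such libraries, but ligation differs between sequences, so the order is one of reads and not of molecules.

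**Figure D1:**
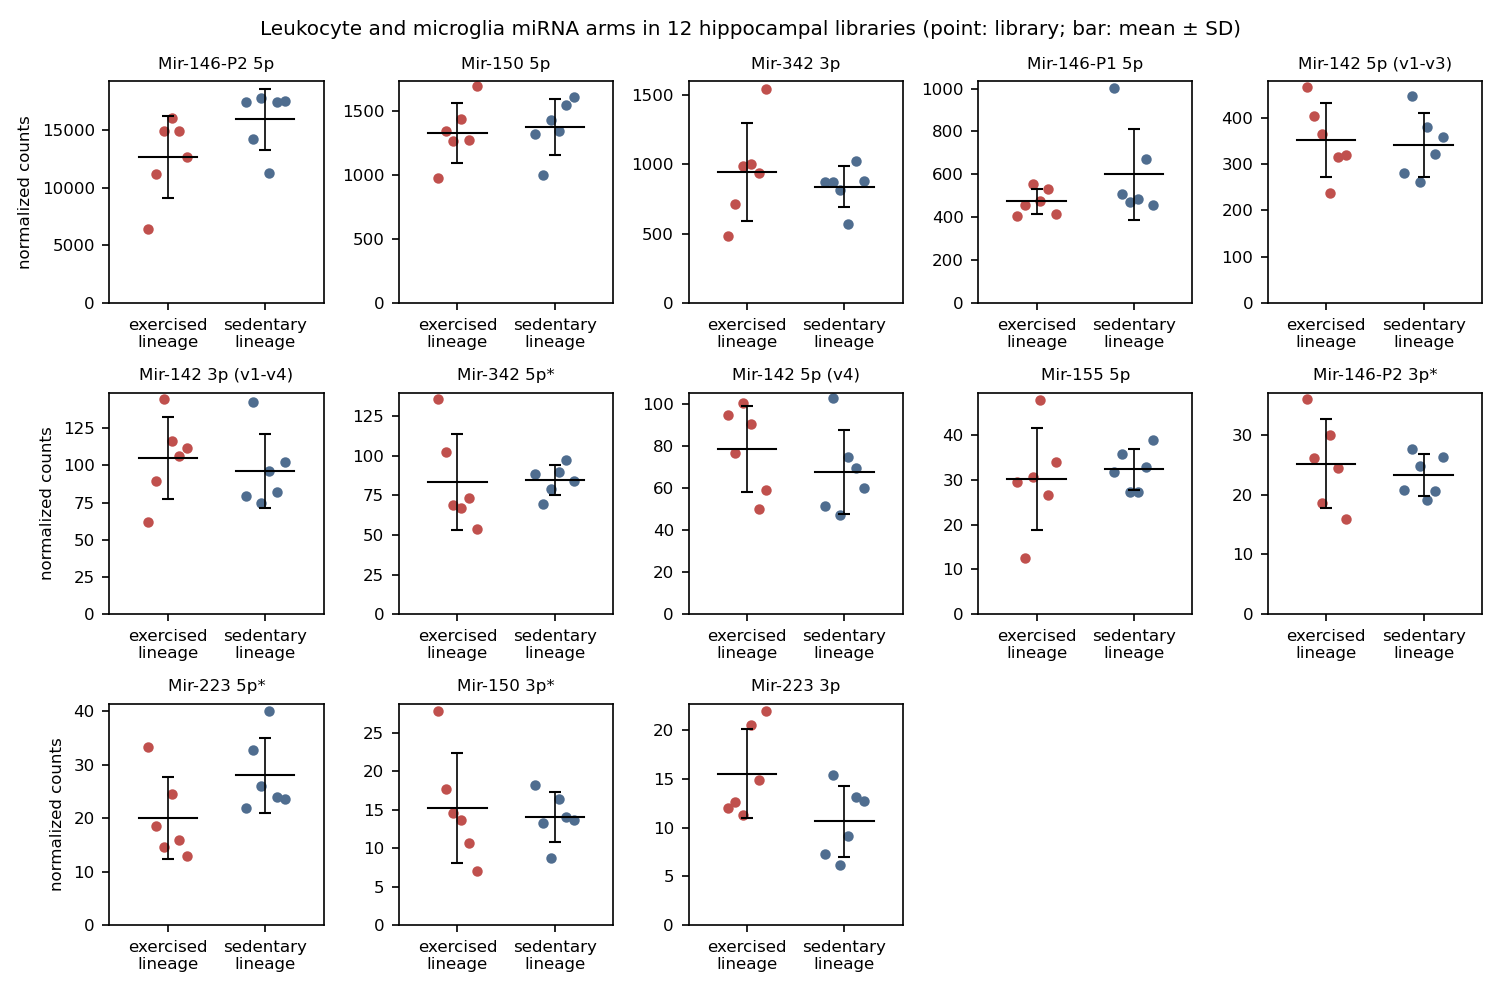
Normalized counts of the 13 arms in each library, exercised lineage on the left and sedentary lineage on the right of each panel, with mean ± SD as bars and arms in order of mean level. The groups overlap in every panel. Library 1 of the exercised lineage, the leftmost red point, is lowest of 12 for Mir-146-P2 5p, Mir-150 5p, Mir-342 3p, Mir-146-P1 5p and Mir-142 3p, and highest for Mir-142 5p, Mir-342 5p*, Mir-150 3p* and Mir-146-P2 3p*.

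Mir-142, the pan-leukocyte and microglial miRNA, had 3 rows with folds above 0, and each confidence interval included 0. Its main 5p row had a lowest, median and highest value of 238, 343 and 466 normalized counts in the exercised lineage, against 260, 340 and 447 in the sedentary lineage. The lineages covered almost the same range (fold 0.03, SE 0.17, limma adjusted p = 0.974). The 3p row stood at 62.0, 108.9 and 144.8 in exercised-lineage mice and at 74.4, 89.4 and 142.5 in sedentary-lineage mice (fold 0.11, SE 0.21, limma adjusted p = 0.890). Without library 1 of the exercised lineage the 5p fold was -0.06 and the 3p fold 0.26.

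In both lineages more Mir-142 reads came from the 5p than from the 3p arm. The log2 ratio of both 5p rows to the 3p row was 2.04 ± 0.63 in exercised-lineage mice and 2.08 ± 0.12 in sedentary-lineage mice (SD, n = 6 each, difference -0.04, exact permutation p = 0.916, two-sided, 0.916 adjusted over 2 tests of Mir-142 rows, which were added after the values were seen). The ratio ran from 1.49 to 3.16 in the exercised lineage, with library 1 at 3.16 and library 2 at 2.41 on the high side, and the sedentary libraries lay between them and the other exercised ones. The v4 row of the 5p arm, an alternative cut of the same arm, stood at 49.9, 83.4 and 100.3 in exercised-lineage mice and at 47.1, 64.5 and 102.5 in sedentary-lineage mice (fold 0.22, SE 0.22, limma adjusted p = 0.689). It took 18.5% ± 5.13 of the 5p counts in exercised-lineage mice and 16.3% ± 1.65 in sedentary-lineage mice (exact permutation p = 0.392, adjusted over 2 tests 0.784). Library 4 of the exercised lineage was highest with 27.5%.

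Mir-223, the myeloid miRNA, was the rarest family beside Mir-155, and its 2 arms had folds of opposite sign. Its 3p arm, the guide, stood at 11.3, 13.7 and 21.9 normalized counts (lowest, median, highest) in the exercised lineage, against 6.20, 10.9 and 15.4 in the sedentary lineage. All 6 exercised libraries lay above the sedentary median, the fold was 0.53 (SE 0.31), and the limma adjusted p was 0.532. Its 5p arm, marked as the passenger, stood at 12.97, 17.2 and 33.3 in the exercised, against 21.9, 25.0 and 40.1 in the sedentary lineage. Here 5 of 6 exercised libraries lay below the sedentary median (fold -0.51, SE 0.26, limma adjusted p = 0.532). It was -0.67 without library 1 of the exercised lineage (limma unadjusted p = 0.0151, adjusted p = 0.631). The 3p arm had 5 to 22 reads per library and the 5p arm 13 to 44. Counting alone would give coefficients of variation of 27.8% and 20.5%, beside observed 35.9% and 34.1% over the 12 libraries.

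The arm marked as passenger was the higher one. Mir-223_5p* exceeded Mir-223_3p in 11 of 12 libraries, and library 6 of the exercised lineage was the exception. Over the table, 25 of 134 hairpins with a marked passenger (18.7%) had a passenger above its guide on average, so the reversal is not particular to Mir-223.

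In the ratio of the arms of a hairpin the size factor of a library cancels, except through the 1 added to each value, and the ratio was tested for all 155 hairpins with both arms at a mean of at least 10. None was called (limma, 0.00% of hairpins), and 6.45% had an unadjusted p below 0.05. For Mir-223 the log2 ratio of 5p over 3p was 0.31 ± 0.68 in exercised-lineage mice and 1.35 ± 0.53 in sedentary-lineage mice (SD, n = 6 each). The difference was -1.04 (SE 0.33, 95% confidence interval -1.76 to -0.31). Its unadjusted limma p of 0.00871 was the smallest of the 155 hairpins, and the difference missed the adjusted threshold (limma adjusted p = 0.526). In 5 of 6 exercised libraries the ratio was below the sedentary median, and library 1, with 1.40, was the exception. The difference was -0.60 without the R41 libraries (limma unadjusted p = 0.125, adjusted p = 0.467) and -1.47 without the R31 libraries (limma adjusted p = 0.301). Without library 1 of the exercised lineage, the difference was -1.25 (limma adjusted p = 0.188). It was -0.83 with 5 in place of 1 added to each value.

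The red cell miRNAs Mir-144, Mir-451 and Mir-486 come from blood, as the neutrophil's Mir-223 can. Their 5 arms summed to 631 to 838 normalized counts in exercised-lineage mice and to 733 to 1219 in sedentary-lineage mice (median 658 in exercised-lineage mice, 841 in sedentary-lineage mice). Of these arms 1 had a fold above 0 and 4 below, none was called, and the median fold was -0.27, with -0.20 for the most abundant, Mir-486_5p. Mir-451_5p stood at 111.4, 169.0 and 247.6 in exercised-lineage mice and at 185.1, 232.5 and 550.4 in sedentary-lineage mice, with 5 of 6 exercised libraries below the sedentary median. Its fold of -0.65 (95% confidence interval -1.204 to -0.095) was the only one of the 5 whose interval left out 0, and it missed the adjusted threshold (limma adjusted p = 0.532). Across the 12 libraries on the log2 scale, Mir-223_5p* and Mir-451_5p had Pearson's r = 0.42 (permutation p = 0.178) and Spearman's rho = 0.43 (permutation p = 0.163). Without the 2 libraries farthest from the Mir-451 median, r was 0.08, and within lineages it was 0.01 in exercised-lineage mice and 0.27 in sedentary-lineage mice. The relation of the guide Mir-223_3p, whose fold was 0.53, with Mir-451_5p was not tested. Nor was the part of blood in the Mir-223 difference.

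**Figure D2:**
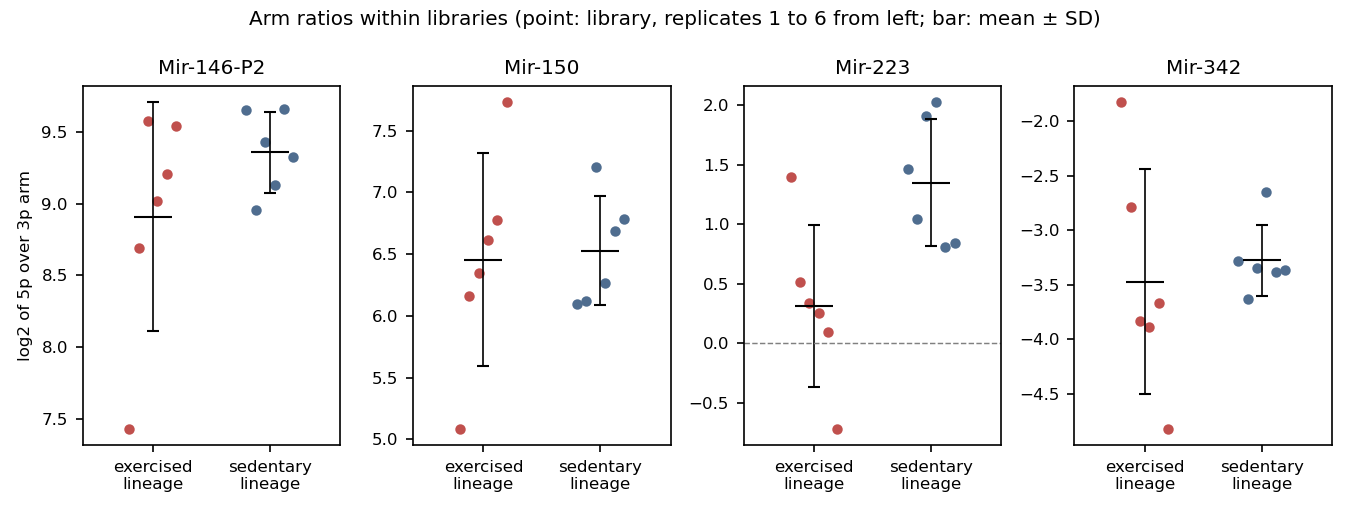
Log2 ratio of the 5p to the 3p arm in each library for the 4 hairpins whose arms both entered the test, exercised lineage on the left of each panel, with mean ± SD. For Mir-223 the exercised libraries average 0.31 and the sedentary ones 1.35. For Mir-150 and Mir-342, libraries 1 and 6 of the exercised lineage lie at opposite ends.

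Mir-146, whose miR-146a member damps NF-kB signalling, had both 5p guides on the negative side. Mir-146-P2_5p stood at 6394, 13803 and 16068 normalized counts in the exercised lineage, against 11254, 17465 and 17828 in the sedentary lineage. None of the 6 exercised libraries exceeded the sedentary median, while the ranges overlapped between 11254 and 16068. The fold was -0.37 (SE 0.21, 95% confidence interval -0.82 to 0.08, limma adjusted p = 0.532), and it was -0.19 without library 1 of the exercised lineage, -0.12 without the R31 libraries and -0.62 without the R41 libraries.

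Mir-146-P1_5p stood at 407, 468 and 555 in the exercised, against 455, 497 and 1002 in the sedentary lineage (fold -0.29, SE 0.18, limma adjusted p = 0.560). Library 1 of the sedentary lineage was alone at 1002, the next being 674, and without it the fold was -0.13. The passenger Mir-146-P2_3p* stood at 16.0, 25.2 and 36.1 in exercised-lineage mice and at 19.1, 22.7 and 27.7 in sedentary-lineage mice (fold 0.08, limma adjusted p = 0.947, and -0.03 without library 1 of the exercised lineage). The ratio of 5p over 3p of Mir-146-P2 differed by -0.45 (SE 0.32, limma adjusted p = 0.575), and by -0.15 without library 1 of the exercised lineage.

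Mir-155, the inflammation-induced miRNA of macrophages and microglia, was near the lower end of the table, and its 5p guide alone has a row. Mir-155_5p stood at 12.6, 30.2 and 47.8 normalized counts in the exercised lineage, against 27.3, 32.3 and 39.0 in the sedentary lineage. The sedentary range lay inside the exercised one, whose lowest value was library 2 and whose highest was library 4. The fold was -0.18 (SE 0.26, 95% confidence interval -0.75 to 0.39, limma adjusted p = 0.821), and 0.04 without library 2 of the exercised lineage. With 15 to 43 reads per library, counting alone gives a coefficient of variation of 18.2% beside the observed 26.7%.

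The guide of Mir-150, the lymphocyte miRNA, varied least of the 13 arms. Mir-150_5p, with a coefficient of variation of 16.0% over the 12 libraries, stood at 976, 1306 and 1693 normalized counts in the exercised lineage, against 997, 1383 and 1611 in the sedentary lineage. The fold was -0.05 (SE 0.14), with the narrowest confidence interval of the members, -0.35 to 0.25 (limma adjusted p = 0.948). The fold was 0.04 with libraries scaled to equal totals and also 0.04 without library 1 of the exercised lineage. The passenger Mir-150_3p* stood at 6.98, 14.1 and 27.8 in exercised-lineage mice and at 8.68, 13.8 and 18.3 in sedentary-lineage mice (fold 0.03, limma adjusted p = 0.995, and -0.16 without library 1 of the exercised lineage).

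Mir-342, from an intron of the actin regulator Evl, spread more widely over the exercised than over the sedentary libraries. Mir-342_3p stood at 485, 966 and 1546 normalized counts in the exercised lineage, against 572, 873 and 1024 in the sedentary lineage. Library 1 was lowest and library 6 highest of all 12, and the fold of 0.11 (SE 0.23, limma adjusted p = 0.908) was 0.28 without library 1 and -0.05 without library 6. Without the R31 libraries the fold was 0.46 (limma unadjusted p = 0.0448, adjusted p = 0.460). Without the R41 libraries it was -0.24 (limma adjusted p = 0.673). Mir-342_5p* had the opposite order, with library 1 highest (136) and library 6 lowest (53.9). Its exercised median was 71.0, and the sedentary lineage had 69.7, 86.6 and 97.2 (fold -0.08, limma adjusted p = 0.921, and -0.24 without library 1 of the exercised lineage).

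**Figure D3:**
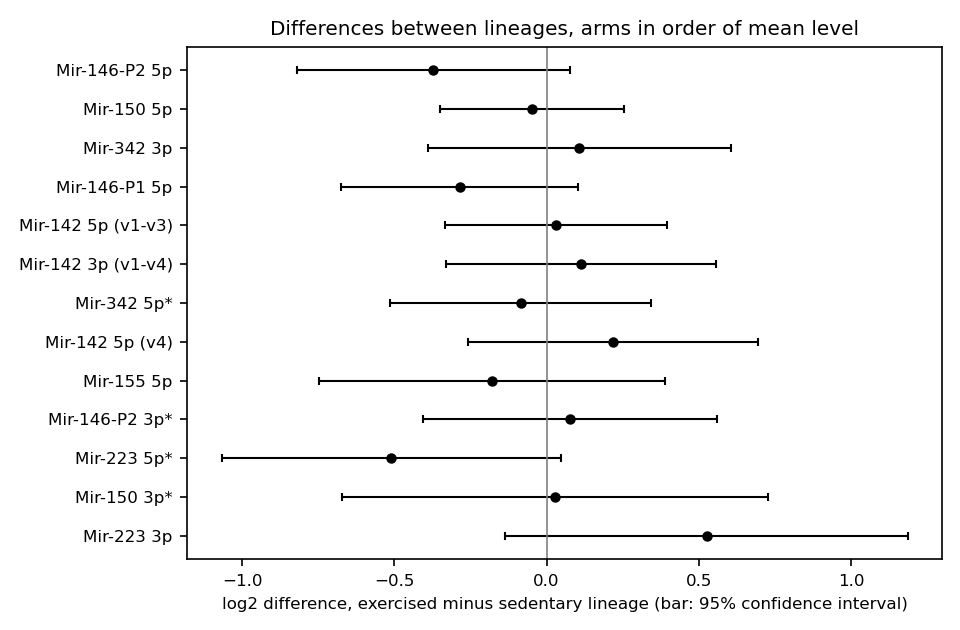
Log2 difference of each arm, exercised minus sedentary lineage, with its 95% confidence interval, arms from the highest mean level at the top. Every interval includes 0, and the intervals of Mir-150 3p* and Mir-223 3p, which have the lowest levels, are the widest.

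In 3 of the 4 hairpins with a marked passenger, guide and passenger took opposite ends of the range in library 1 of the exercised lineage. In library 1, Mir-146-P2_5p, Mir-150_5p and Mir-342_3p were each the lowest of 12, while Mir-146-P2_3p*, Mir-150_3p* and Mir-342_5p* were each the highest. For Mir-223, library 1 was 8th of 12 in the guide Mir-223_3p and 2nd in Mir-223_5p*, counted from the highest. In library 6, Mir-150_5p, Mir-342_3p and Mir-223_3p were the highest of 12, and all 4 marked passengers (Mir-146-P2_3p*, Mir-150_3p*, Mir-223_5p* and Mir-342_5p*) the lowest. Mir-146-P2_5p was 9th there. Over the 4 hairpins with a marked passenger, the median log2 ratio of passenger to guide, taken as a deviation from each hairpin's own mean, was 1.47 in library 1 and -1.34 in library 6. The other 10 libraries lay between -0.45 and 0.47. Library 1 has the stem R31 and library 6 the stem R41. Within the exercised lineage, the log2 ratio of 5p over 3p did not overlap between stems for Mir-150 and Mir-223. For Mir-150 it was 5.09 to 6.35 in R31 and 6.61 to 7.73 in R41 libraries. For Mir-223 it was 0.34 to 1.40 in R31 and -0.72 to 0.25 in R41 libraries. The stems overlapped for Mir-342 and Mir-146-P2. The part of the stem in these ratios was not tested.

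The 130 hairpins outside these families had a smaller median deviation in both libraries, which were picked because members were extreme there. In a median over many hairpins, deviations of opposite sign cancel, so it does not give the size of single deviations. The median deviation of the 130 hairpins was 0.23 in library 1 and 0.01 in library 6, beside -0.07 to 0.07 in the other 10. Library 1 of the exercised lineage held the highest passenger to guide ratio in 48 of all 134 hairpins. The next were library 6 of the exercised lineage with 21 and library 3 of the sedentary lineage with 19. The mean of the library medians over these 130 hairpins was 0.04 in exercised-lineage mice and 0.00 in sedentary-lineage mice (exact permutation p = 0.567, two-sided). The part of this shift in the folds of the members was not tested.

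**Figure D4:**
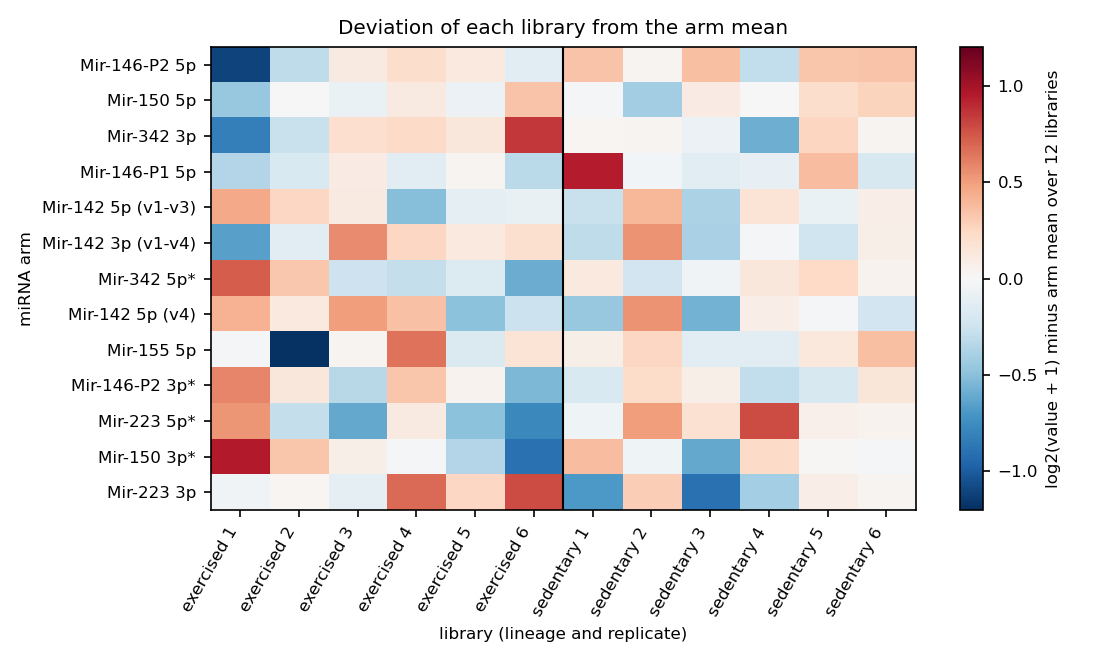
Deviation of each library from the arm's mean on log2(value + 1), exercised lineage on the left of the black line, arms in order of mean level, from -1.19 to 0.95. Columns exercised 1 and exercised 6 have opposite colours in the rows of Mir-342 and Mir-150, and Mir-155 5p is lowest in exercised 2.

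Across libraries the leading (most abundant) arms of the 6 families did not follow each other as 1 group. For Mir-223 this arm is the marked passenger, and the guide Mir-223_3p was not tested in these pairs. Mir-223_3p and Mir-342_3p were both the highest of 12 in library 6 of the exercised lineage, where Mir-223_5p* was the lowest. Of 15 pairs, chosen after the values were seen, 0 passed after adjustment over the 15. The strongest were Mir-342_3p with Mir-223_5p* (Pearson's r = -0.73, permutation p = 0.00711, adjusted 0.0743, Spearman's rho = -0.60, permutation p = 0.0437, adjusted 0.283) and Mir-142 5p with Mir-146-P2_5p (r = -0.68, permutation p = 0.00991, adjusted 0.0743, rho = -0.73, permutation p = 0.00958, adjusted 0.144). Without the 2 libraries farthest from the median of Mir-342_3p the first r was -0.54, and without the 2 farthest from that of Mir-146-P2_5p the second was -0.49. Within lineages the first was -0.80 in exercised-lineage mice and -0.79 in sedentary-lineage mice. The second was -0.81 within the exercised and -0.64 within the sedentary lineage. Of the 6 relations of these arms with the red cell Mir-451_5p, 0 passed (lowest permutation p = 0.163, adjusted 0.718).

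The arms outside the families with the most similar order of libraries differed from family to family. Likeness is Spearman's rho over the 12 libraries among the other arms with a mean of at least 100, given with no test since the highest were picked. Mir-142 5p was most like the 5p row of Mir-181-P2a (0.90), Mir-154-P13_3p (0.86) and Mir-24-P2_5p* (0.83). Mir-146-P2_5p was most like Mir-541_5p (0.96), Mir-340_3p* (0.93) and Mir-185_5p (0.92).

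Mir-150_5p was most like the 3p row of the endothelial Mir-126 (0.85), the 3p row of the muscle miRNA Mir-1 (0.83) and the 3p row of Mir-29-P2a (0.76). Mir-342_3p was most like Mir-384_5p* (0.88), Mir-135-P3_5p (0.85) and the 3p passenger row of Mir-9 (0.81). The arms most like Mir-155_5p were Mir-148-P3_3p (0.78), the 5p passenger row of Mir-140 (0.76) and Mir-145_3p* (0.75). Those most like Mir-223_5p* were Mir-666_5p (0.66), Mir-28-P1_3p (0.59) and Mir-770_3p (0.59), the lowest values of the 6 families. These orders rest on libraries of which library 1 of the exercised lineage stands apart, and its part in them was not tested.

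Other miRNAs linked to inflammation and immune cells, Mir-21, Mir-181 and Mir-221, had 8 of 14 arms above 0 and 6 below, none called, and a median fold of 0.03. Mir-21_5p, which is induced in activated glia and macrophages, stood at 91111, 194477 and 208965 normalized counts in exercised-lineage mice and at 129012, 182616 and 195565 in sedentary-lineage mice (fold -0.03, SE 0.20, limma adjusted p = 0.979). The ranges overlapped widely. The neuronal list (Mir-124 and Mir-128) had 4 of 5 arms above 0, both endothelial Mir-126 rows lay on either side of 0, and the choroid plexus list (Mir-204 and Mir-1298) had 4 of 4 below, with none called in any of these lists. Median folds were 0.11 for the neuronal, 0.11 for the endothelial and -0.23 for the choroid plexus list. Their most abundant arms had folds of -0.18 (Mir-128 3p, neurons), -0.05 (Mir-126 3p, endothelium) and -0.22 (Mir-1298_5p, choroid plexus), and the Mir-124 guide, a neuronal miRNA, had 0.38 (limma adjusted p = 0.532), with 6 of 6 exercised libraries above the sedentary median. The summed choroid plexus level ran from 29846 to 161274 in exercised-lineage mice and from 28667 to 162648 in sedentary-lineage mice (median 42982 in exercised-lineage mice, 86924 in sedentary-lineage mice), and its part in the members' values was not tested.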

How the data were processed

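The deposited table holds a non-negative signal, namely the reads of each arm after the authors scaled them by size factors. Bowtie 1.3.0, mm10 and DESeq2 were used per the submitters' processing notes. Trimming, mismatches, multiply mapped reads and row filters were not given in the sources used. Libraries came from a NEBNext small RNA kit after Qiagen miRNA extraction, per the labels' protocols. All values were whole multiples, within 0.01, of 1 step per library, from which reads were counted. The smallest value stood for 2 to 6 reads, and no count model was fitted. Groups came from the sample titles. Fits used limma 3.58.1 in R 4.3.3 (empirical Bayes with trend, without trend for arm ratios) on log2(value + 1), with Benjamini-Hochberg adjustment over 474 arms or 155 hairpins. Single values were compared by exact permutation over 924 assignments, and correlations by 100000 permutations with scipy 1.17.1 and numpy 2.4.6. The limma tests were also run on simulated normal log2 values with the observed means and spreads. The simulated libraries were independent, so they do not cover mice related within a stem. The members, lists and tests were chosen with earlier results of these data known. Every member arm is named. Beside them are named the 3 most alike arms per family and the most abundant arm of a list. Mir-451_5p is named for the red cell relations, and the Mir-124 guide is named outside these rules. Alternatives covered pseudocounts, filters, scaling, blocks, and libraries or code stems left out. Libraries of 1 lineage differed beyond counting noise in every pair (lowest chi-square per degree of freedom 137).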

Additional observations from a re-analysis of the deposited data

Results flagged for a closer look

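Of 38 sets of 6 libraries checked (13 arms, 4 arm ratios and 2 Mir-142 measures in each lineage), 1 had a library apart from the rest by Dixon's test, where chance gives about 1 in 20. The log2 ratio of 5p over 3p of Mir-342 was -2.65 in library 4 of the sedentary lineage, with the other 5 between -3.63 and -3.28. Its gap to the nearest was 0.638 of the range.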

How the results depend on the processing

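The limma test called 0 arms and 0 hairpin ratios under every alternative run, with 16 to 48 arms at an unadjusted p below 0.05 over the arm fits. Members at an unadjusted p below 0.05 numbered 0 with all libraries, 0 to 1 with 1 library left out, 2 without R31 (Mir-342_3p and Mir-342_5p*) and 1 without R41 (Mir-146-P2_5p). With 1 library left out, they were Mir-223_5p* without library 1 of the exercised lineage (limma unadjusted p = 0.0151) and Mir-146-P2_5p without library 4 of the sedentary lineage (limma unadjusted p = 0.0422). The members' median fold ran from -0.06 to 0.06 with 1 library left out.

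Of 401 arm folds and ratios under alternatives, 33 had the other sign, none of them called, and the cause was not tested. The members' median fold (0.03 with all libraries) was below 0 in 8 of 25 alternatives. Without R31 these were Mir-142 5p v1 to v3 (-0.22), Mir-142 v4 (-0.021), Mir-146-P2_3p* (-0.015), Mir-150_3p* (-0.41), Mir-150_5p (0.10), Mir-155_5p (0.12) and the Mir-150 ratio (0.51). Without R41 they were Mir-142 3p (-0.014), Mir-342_3p (-0.24), Mir-342_5p* (0.22) and the Mir-342 ratio (0.46). Without S11 they were Mir-142 5p v1 to v3 (-0.037) and Mir-150_3p* (-0.059), and without S41 Mir-150_5p (0.091) and Mir-342_5p* (0.012). Equal totals, which put the median fold of all arms at 0.085, gave Mir-150_5p 0.039 and Mir-342_5p* 0.0017.

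With 1 library left out, folds ran from -0.056 to 0.14 for Mir-142 5p v1 to v3, -0.032 to 0.19 for Mir-146-P2_3p*, -0.16 to 0.21 for Mir-150_3p*, -0.14 to 0.038 for Mir-150_5p, -0.33 to 0.041 for Mir-155_5p, -0.051 to 0.28 for Mir-342_3p and -0.24 to 0.026 for Mir-342_5p*. Ratios ran from -0.33 to 0.20 for Mir-150, -0.52 to 0.077 for Mir-342 and -1.25 to -0.83 for Mir-223. The Mir-223 ratio kept its sign in all alternatives, with limma adjusted p from 0.188 to 0.864.

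Replicate numbers do not pair the mice (correlations of same-numbered libraries -0.17 to 0.15), and with the replicate block 0 arms, 0 ratios and 0 members at an unadjusted p below 0.05 were found. The correlation between libraries of 1 stem, a single estimate over all 474 arms, was -0.00. It was not estimated for arm ratios or for the members alone, so it does not give the stem's part in single members. The difference in the Mir-342 ratio was -0.85 without R31 and 0.46 without R41. That in the Mir-150 ratio was 0.51 without R31 and -0.66 without R41. A filter at a mean of 50 removed 5 members. TMM scaling and count models were not run. Depth limits Mir-223 and Mir-150_3p* most, with 5 to 44 reads.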
